A study of Mus musculus with 12 samples.

Results

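TGF-beta and BMP ligands, receptors and Smads were examined across 12 RNA-sequencing libraries of immortalized mouse brown adipocytes. The 10 genes were listed by symbol (Tgfb1, Tgfb2, Tgfb3, Bmp4, Tgfbr1, Tgfbr2, Bmpr1a, Bmpr2, Smad3 and Smad7) by a rule that uses no measured value, although earlier results of these data were known when the list was made, and 9 of them were among the 14775 genes of the deposited table. The expression of Bmp4 was not analysed here. The study asked how a low concentration of the organophosphate insecticide chlorpyrifos (CPF) alters brown adipocytes. TMCON brown preadipocytes were fully differentiated (induction with IBMX, indomethacin, dexamethasone, triiodothyronine and insulin, followed by triiodothyronine and insulin alone) and then held for 4 h in Krebs-Ringer buffer with albumin and either 1 pM CPF or its solvent DMSO (vehicle), with 6 libraries in each group. Brown adipocyte lines of the study were made by retroviral SV40 infection of cells from brown adipose tissue of mouse pups, so that both groups carry SV40, and the sources used here do not say which mouse strain gave TMCON or whether the libraries came from separate cultures. Hence a p-value here is set against the scatter among libraries only, and this scatter may be technical.

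TGF-beta ligands are secreted in a latent complex, are released in the matrix and bind the type II receptor TGFBR2, which recruits and phosphorylates the type I receptor TGFBR1. The type I receptor phosphorylates SMAD2 and SMAD3, which enter the nucleus with SMAD4. BMP ligands signal through BMPR2 and BMPR1A to SMAD1, SMAD5 and SMAD9, and SMAD6 and SMAD7 inhibit the receptors. In adipose tissue TGF-beta and SMAD3 are known to restrain adipocyte and brown adipocyte gene programmes, whereas several BMPs promote brown adipocyte commitment.

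Values are normalized counts, the read counts divided by a size factor of each library, and rest on 7875502 to 14166615 reads per library (median 9906195.5 in vehicle and 10672437.5 in CPF). Adipocyte markers were abundant (8 of 8 in the table, the highest being Fabp4, mean 30251 normalized counts). Of the brown adipocyte markers 7 of 8 were in the table, with means from 17.5 (Elovl3) to 8005 (Cidea). Preadipocyte and fibroblast markers were present as well (9 of 9, the highest being Vim, mean 16139). So were 5 of 5 mural and smooth muscle and 2 of 6 macrophage markers, while 0 of 5 endothelial and 0 of 5 myogenic markers were. How genes were selected for the table is not stated, so that absence from it is no measured level. Vehicle replicate 2 and CPF replicate 1 stood apart from the other libraries on the first principal component (31.5 and 33.0 against −13.7 to 6.12, 29.1% of the variance). For some genes the value without 1 or both of them is given, and a value given without this may also have moved. As these are bulk samples, fewer cells of a type and less RNA per cell cannot be told apart.

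The members were tested with limma on log2(normalized count + 1) together with all 13531 genes that had a mean of at least 10, and p-values were adjusted over all of these by the Benjamini-Hochberg method. With CPF 0 of 9 members passed an adjusted p of 0.05, as did 0.0% of all tested genes, and 0 of 9 members passed with edgeR or DESeq2. At an unadjusted p under 0.05 stood 2 of 9 members, Tgfbr2 (higher mean with CPF) and Tgfb3 (lower mean with CPF), against 7.32% of all tested genes. No member had groups that did not overlap, against 0.466% of all tested genes. The log2 fold change, CPF minus vehicle, was positive for 2 of 9 members (Tgfb1 and Tgfbr2) against 49.6% of all tested genes, and its median was −0.033 over the members against −0.0015 over all tested genes.

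**Figure D1:**
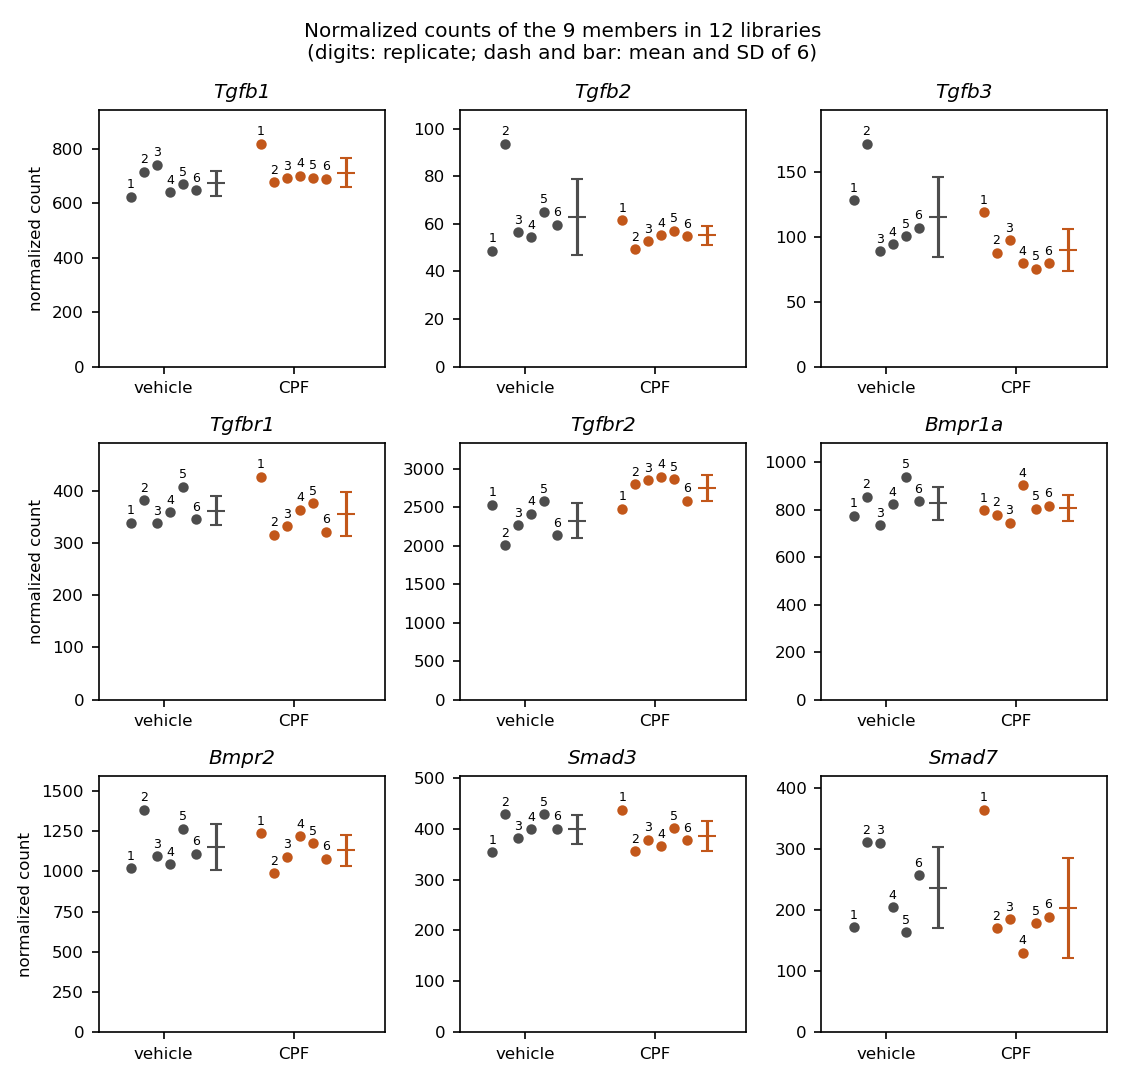
Normalized counts (vertical axis, starting at 0) of the 9 members in the 6 vehicle and 6 CPF libraries, each point being 1 library numbered by replicate, and the dash and bar giving mean and SD. For Tgfbr2, 5 of 6 CPF libraries lie above the highest vehicle library (2577), whereas the groups of the other members overlap more widely.

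Of the genes measured here, the pair that forms the TGF-beta receptor is shown first by sequence, since the type II receptor had the smallest p of the members and its type I partner did not differ beyond the spread of the libraries. The stretches are the 250 bases before the RefSeq start of each gene (GRCm38.p6), read 5′ to 3′ on the strand of the gene. Tgfbr1 (ENSMUSG00000007613) spans chr4:47353222-47414931 on the plus strand, and the stretch is chr4:47352972-47353221. Tgfbr2 (ENSMUSG00000032440) spans chr9:116084293-116175360 on the minus strand, and the stretch is chr9:116175364-116175613. Capitals mark matches to 3 Smad-related motifs, described after the sequences.
Tgfbr1: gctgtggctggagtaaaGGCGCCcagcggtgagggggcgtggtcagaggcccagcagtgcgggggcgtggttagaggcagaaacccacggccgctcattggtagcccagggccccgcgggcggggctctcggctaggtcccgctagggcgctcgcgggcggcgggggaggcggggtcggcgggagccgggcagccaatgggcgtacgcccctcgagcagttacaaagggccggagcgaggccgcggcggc
Tgfbr2: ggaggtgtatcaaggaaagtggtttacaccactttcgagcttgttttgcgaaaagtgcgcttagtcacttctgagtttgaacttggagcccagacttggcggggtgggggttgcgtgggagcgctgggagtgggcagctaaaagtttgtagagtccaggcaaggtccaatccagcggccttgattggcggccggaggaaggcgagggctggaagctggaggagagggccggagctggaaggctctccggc

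The motifs were CAGACA (the CAGA element bound by SMAD3 and SMAD4), GGCGCC (a GC-rich Smad element) and GTCTAGAC (the Smad palindrome), each searched on both strands in windows of 300 bases (250 before and 50 after the start). Windows were at hand for 8 of the 10 listed genes, Bmp4 among them. GGCGCC was found in the windows of Tgfbr1, Bmpr1a and Bmpr2, and in 11.9% of all 32851 promoter windows. CAGACA was found in the window of Tgfb2 and in that of a second, downstream start of Tgfbr1, and in 21.0% of all windows, and the palindrome GTCTAGAC was in no member's window and in 0.213% of all. Like those of Tgfb1, Bmp4 and Smad3, the Tgfbr2 window held none of the 3 motifs. At 59% it had less G and C than the main Tgfbr1 window (74.7%), near Bmpr2 (59.3%) and above Tgfb2 (54.3%). A match is a description of the letters only.

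Among the ligands, Tgfb1 (chr7:25687002-25705077, plus strand), which encodes the most widely expressed TGF-beta, had normalized counts of 625, 659.8 and 742 in vehicle (lowest, median and highest of 6 libraries) and of 678, 694 and 819 in CPF. All 6 CPF libraries lay above the vehicle mean, but only CPF replicate 1 lay above the highest vehicle library. The means were 674 ± 46.1 in vehicle and 713 ± 52.8 in CPF (± SD, 6 libraries in each group), which gave a log2 fold change of 0.080 (SE 0.062, 95% confidence interval −0.051 to 0.21, adjusted p = 0.792, exact two-sided permutation p = 0.195). Without CPF replicate 1 it was 0.040.

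Tgfb2 (chr1:186622792-186705989, minus strand), the ligand that needs the co-receptor betaglycan for efficient binding, was measured at 48.7, 58.0 and 93.7 normalized counts in vehicle and at 49.3, 55.1 and 61.6 in CPF. Vehicle replicate 2 was the high library, and all 6 CPF libraries lay below the vehicle mean, which that library raised. The log2 fold change was −0.16 (SE 0.14, 95% confidence interval −0.46 to 0.14, adjusted p = 0.812, exact permutation p = 0.303), and it was −0.042 without vehicle replicate 2.

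Tgfb3 (chr12:86056745-86079041, minus strand), another TGF-beta that uses the same receptors, had 88.9, 104 and 172 normalized counts in vehicle and 75.5, 84.0 and 119 in CPF. In CPF, 4 of 6 libraries lay below the lowest vehicle library, and CPF replicates 1 and 3 lay within the vehicle range. The means were 115 ± 30.9 in vehicle and 89.9 ± 16.2 in CPF, giving a log2 fold change of −0.34 (SE 0.16, 95% confidence interval −0.67 to −0.0052, unadjusted p = 0.0469, adjusted p = 0.679, exact permutation p = 0.0736). Without vehicle replicate 2, in which Tgfb3 was highest, the log2 fold change was −0.21 (adjusted p = 0.952). It was −0.42 without CPF replicate 1 (adjusted p = 0.167) and −0.30 without both libraries that stood apart (adjusted p = 0.236).

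The type II receptor Tgfbr2, which binds the ligand, carried the smallest p of the members and ranked 61 of 13531 genes. Its normalized counts were 2004, 2339 and 2577 in vehicle and 2481, 2824 and 2895 in CPF. In CPF, 5 of 6 libraries lay above the highest vehicle library, the exception being CPF replicate 1, and 4 of 6 vehicle libraries lay below the lowest CPF library. The means of 2320.3 ± 227 in vehicle and 2746 ± 171 in CPF gave a log2 fold change of 0.25, or 1.19-fold (SE 0.069, 95% confidence interval 0.099 to 0.39). This passed an unadjusted test (limma p = 0.00273, exact permutation p = 0.00866, the smallest possible being 0.00216) but not the adjustment over all tested genes (adjusted p = 0.569).

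Over the alternatives the log2 fold change of Tgfbr2 stayed between 0.20 and 0.28, and its adjusted p ranged from 0.0597 (libraries weighted by their quality) to 0.9995 (within replicates 1 to 3 alone). Within replicates 1 to 3 the log2 fold change was 0.26, and within replicates 4 to 6 it was 0.23. Without CPF replicate 1 the adjusted p was 0.0758, and without both libraries that stood apart it was 0.0801. The difference was of like size with and without these libraries, and in none of these fits did it pass the threshold of 0.05.

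Tgfbr1, the type I kinase that acts with Tgfbr2, was at 339, 353 and 409 normalized counts in vehicle and at 317, 348 and 428 in CPF. The CPF libraries lay on both sides of the vehicle range, 3 below its lowest and 1 (replicate 1) above its highest value. For Tgfbr1 the log2 fold change was −0.028 (SE 0.080, adjusted p = 0.952, exact permutation p = 0.725), with an unadjusted 95% confidence interval of −0.20 to 0.14. Leaving out single libraries gave −0.082 to 0.0066.

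The BMP receptors likewise did not differ beyond the spread of the libraries. Bmpr1a (chr14:34410734-34503341, minus strand), a type I receptor for BMP2 and BMP4, was at 735, 829 and 939 normalized counts in vehicle and 745, 800.5 and 904 in CPF. Its log2 fold change was −0.033 (SE 0.065, 95% confidence interval −0.17 to 0.10, adjusted p = 0.927). Bmpr2 (chr1:59763400-59879014, plus strand), the type II BMP receptor, was at 1018, 1102 and 1384 in vehicle and 987, 1133 and 1237 in CPF, with vehicle replicate 2 the highest. The log2 fold change of Bmpr2 was −0.023 (SE 0.080, 95% confidence interval −0.19 to 0.15, adjusted p = 0.960), and its sign turned without vehicle replicate 2 (0.031).

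**Figure D2:**
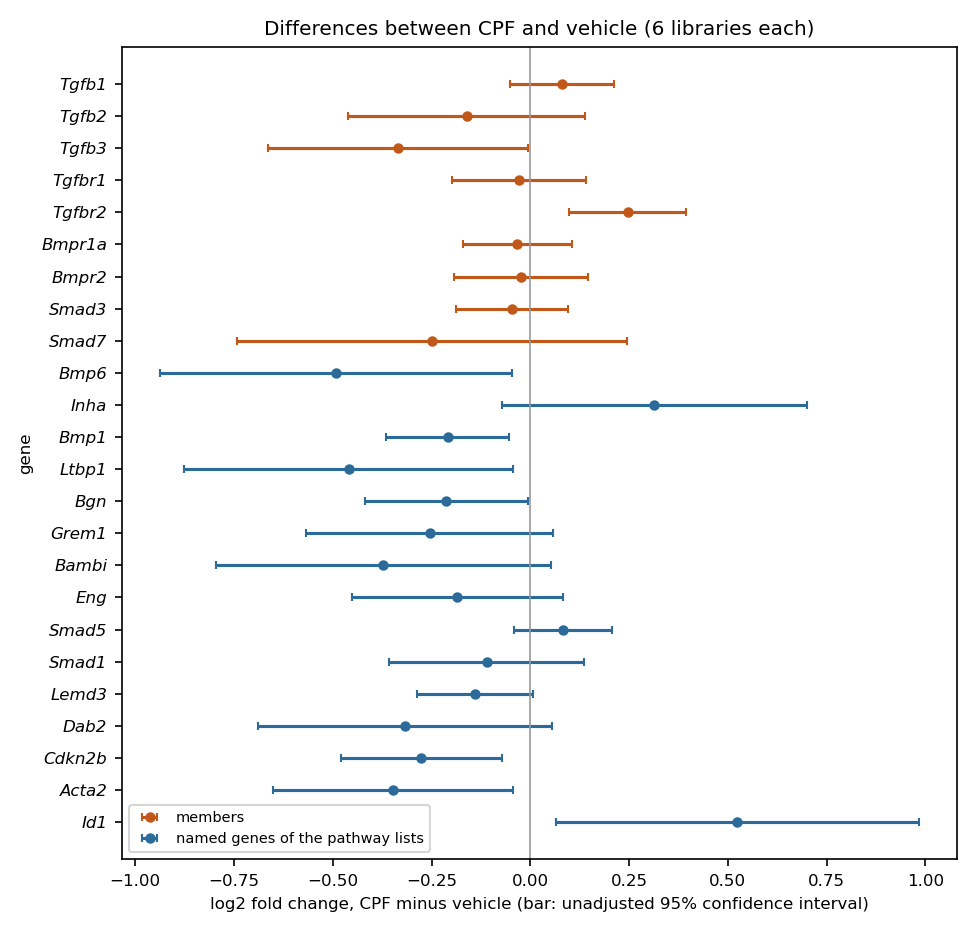
Log2 fold change, CPF minus vehicle (horizontal axis), with unadjusted 95% confidence intervals for the 9 members and for the 2 genes of each pathway list with the smallest p. Among the members, Tgfbr2 (0.25) lies right of 0 and Tgfb3 (−0.34) left of it with intervals that exclude 0, and no gene shown passed the adjusted test.

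Of the Smads, Smad3 (chr9:63646767-63757994, minus strand), which carries the TGF-beta signal to the nucleus, was among the least variable members. Its normalized counts were 354, 399.6 and 429 in vehicle and 355, 378 and 437 in CPF, so that the groups spanned nearly the same range. Smad3 had a log2 fold change of −0.046 (SE 0.067, 95% confidence interval −0.19 to 0.096, adjusted p = 0.889, exact permutation p = 0.448), which shrank to −0.025 when vehicle replicate 2 was left out and grew to −0.083 when CPF replicate 1 was.

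Smad7 (chr18:75367529-75395935, plus strand), an inhibitor that TGF-beta itself induces, varied most, with a standard deviation on the log2 scale above that of 92.1% of tested genes. It had 164, 231 and 311 normalized counts in vehicle and 130.2, 182 and 364 in CPF. The highest value was in CPF replicate 1, whereas the other 5 CPF libraries lay below the vehicle mean of 236 ± 65.8. The log2 fold change was −0.25 (SE 0.23, adjusted p = 0.818, exact permutation p = 0.364) with a wide 95% confidence interval of −0.74 to 0.24, and leaving out single libraries moved it from −0.14 (without CPF replicate 4) to −0.43 (without CPF replicate 1, adjusted p = 0.258). It was −0.16 without vehicle replicate 2, and likewise −0.16 without vehicle replicate 3.

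Levels of different genes were compared per kilobase of exon, over all 12 libraries. Tgfbr2 was highest at 309 ± 35.8 normalized counts per kilobase (SD, n = 12), followed by Tgfb1 (138 ± 10.2) and Bmpr1a (129 ± 9.51). The downstream and inhibitory Smads and the other receptors came next, Smad3 at 70.8 ± 5.14, Bmpr2 at 63.5 ± 6.46, Tgfbr1 at 55.0 ± 5.24 and Smad7 at 48.6 ± 16.1. The remaining ligands were lowest, Tgfb3 at 30.3 ± 7.99 and Tgfb2 at 10.2 ± 2.05.

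Among neighbours in this order, the ranges over libraries did not overlap between Tgfbr2 and Tgfb1, between Bmpr1a and Smad3, and between Tgfb3 and Tgfb2. All other neighbours had ranges that overlapped, for example Tgfb1 and Bmpr1a, with Tgfb1 the higher in 8 of 12 libraries. With the longest transcript as the length the level of Tgfb1 was 269.5 per kilobase, so that its distance from Bmpr1a (137 by this length) depends on the length used, and the ranges of Tgfb1 and Tgfbr2 (mean 313) then overlapped, Tgfb1 being the higher in 3 of 12 libraries (vehicle replicates 2 and 3 and CPF replicate 1). By this length Bmpr2 (88.5) was above Smad3 (77.1) in 12 of 12 libraries, the reverse of their order by exon length.

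**Figure D3:**
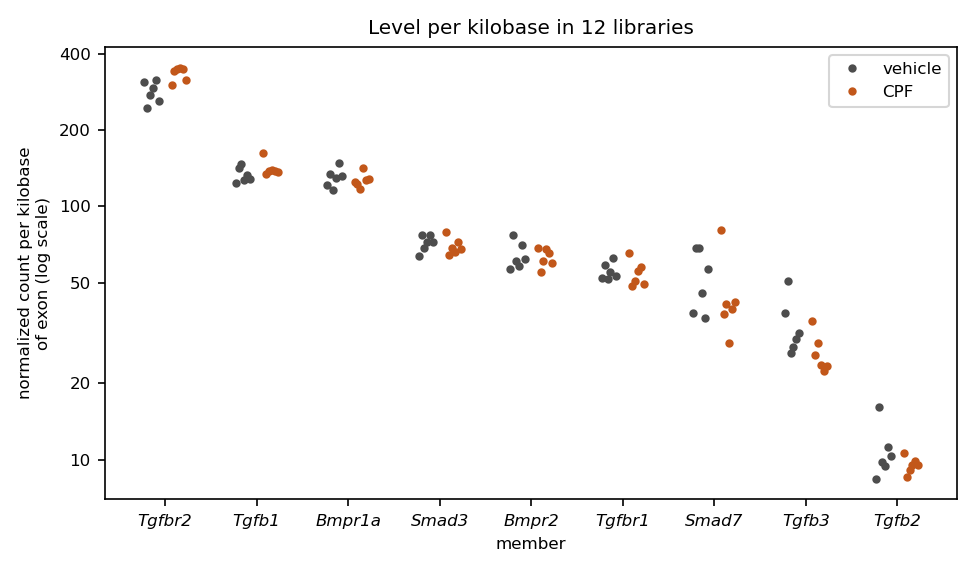
Normalized count per kilobase of exon (vertical axis, log scale) of each member in the 6 vehicle and 6 CPF libraries, each point being 1 library, with members ordered by their mean. By this length Tgfbr2 lies above all other members in each library and Tgfb2 below them.

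The rest of the pathway was read from 8 lists, also made with earlier results known, of which 107 of 144 genes were tested. None of these genes passed the adjusted test with limma, edgeR or DESeq2. The log2 fold change was positive for 36 and negative for 71 of the 107, with a median of −0.084, against −0.0015 over all tested genes, and 8 genes had an unadjusted p under 0.05, 1 higher and 7 lower with CPF, against 2.77% and 4.55% of all tested genes.

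Among other ligands (6 tested, 3 positive and 3 negative, median −0.047), Bmp6, a BMP made by many mesenchymal cells, had 15.5 ± 2.67 normalized counts in CPF and 22.9 ± 8.28 in vehicle (log2 fold change −0.49, SE 0.21, adjusted p = 0.656). The difference for Bmp6 was not seen within replicates 4 to 6, where it was 0.014. It was −0.34 without vehicle replicate 2 and −0.30 without both libraries that stood apart. Inha, the inhibin alpha subunit, was at 76.7 ± 12.1 in CPF and 63.1 ± 16.3 in vehicle (log2 fold change 0.31, SE 0.18, adjusted p = 0.715), and its log2 fold change was 0.14 without vehicle replicate 2. The counts of Bmp6 were low, and the groups overlapped for both genes.

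Proteins of latency and activation hold TGF-beta in the matrix and release it, and 15 of 18 tested genes had a negative log2 fold change (median −0.12), against 50.4% of all tested genes. The median was −0.056 without vehicle replicate 2 (16 of 18 negative), and within replicates 4 to 6 only 11 of 18 were negative (median −0.081). Ltbp1, the latent TGF-beta binding protein, was at 134 ± 45.6 normalized counts in CPF and 182 ± 47.5 in vehicle (log2 fold change −0.46, SE 0.19, adjusted p = 0.659), and CPF replicate 1 was its highest CPF library at 224. The log2 fold change of Ltbp1 was −0.62 without CPF replicate 1 and −0.35 without vehicle replicate 2. Within replicates 4 to 6 alone Ltbp1 passed the test (log2 fold change −0.70, SE 0.12, adjusted p = 0.0293), 1 of 22 genes called in that fit (0.163% of all tested genes). Bmp1, a protease that processes procollagens and the BMP antagonist chordin, was at 924.4 ± 88.0 in CPF and 1069 ± 103 in vehicle (log2 fold change −0.21, SE 0.074, adjusted p = 0.611).

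Secreted antagonists bind ligands outside the cell, and 8 of 12 tested had a negative log2 fold change (median −0.14). Bgn, the matrix proteoglycan biglycan, was at 13861 ± 1211 normalized counts in CPF and 16176 ± 2602 in vehicle (log2 fold change −0.21, SE 0.097, adjusted p = 0.677). Grem1, a BMP antagonist, was at 258 ± 67.8 in CPF and 305 ± 53.6 in vehicle (log2 fold change −0.26, SE 0.15, adjusted p = 0.712). In both genes 5 of 6 CPF libraries lay below the vehicle mean, and the exception was CPF replicate 1. Without vehicle replicate 2 the log2 fold change was −0.14 for Bgn and −0.17 for Grem1, and without CPF replicate 1 that of Grem1 was −0.38.

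Other receptors (11 tested, 6 positive, median 0.010), other Smads (6 tested, 4 positive, median 0.017) and Smad regulators (27 tested, 12 positive, median −0.0090) had medians near that of all tested genes. Bambi, a pseudoreceptor without a kinase domain, had a log2 fold change of −0.37 (SE 0.20, adjusted p = 0.700) at 22.4 ± 5.53 normalized counts in CPF and 29.1 ± 7.40 in vehicle. Eng (endoglin, a co-receptor) had −0.19 (SE 0.13), Smad1 −0.11 (SE 0.12) and Smad5 0.083 (SE 0.059), the last pair being effectors of BMP signalling. Lemd3, a nuclear membrane protein that binds Smads, had −0.14 (SE 0.070) and Dab2, an endocytic adaptor, −0.32 (SE 0.17), the latter with vehicle replicate 2 far above the others at 623 normalized counts. Without that library the log2 fold change was −0.15 for Dab2, −0.094 for Eng and −0.040 for Smad1, and for Smad1 it was −0.21 without CPF replicate 1. For Bambi it was −0.23 without CPF replicate 4.

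**Figure D4:**
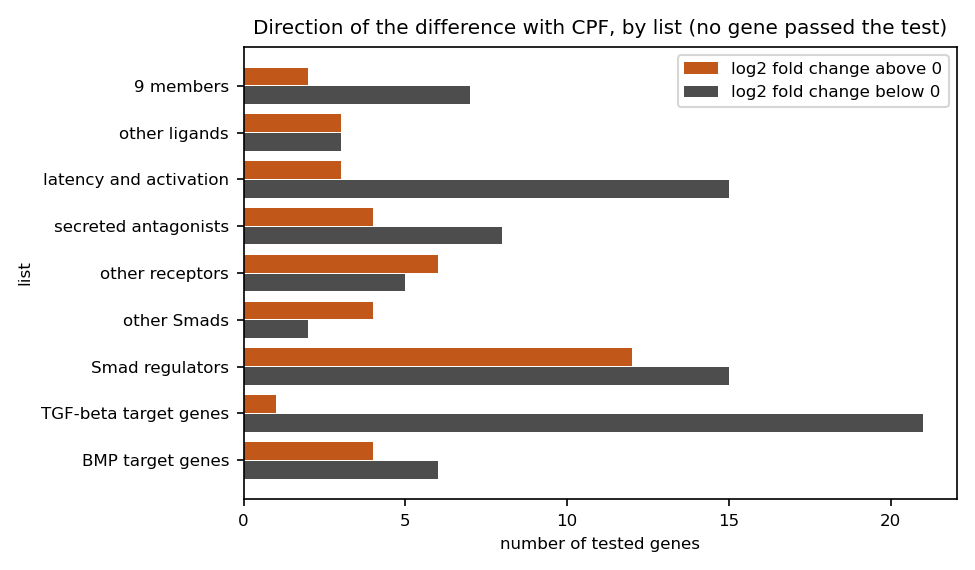
Number of tested genes (horizontal axis) with a log2 fold change above and below 0, CPF minus vehicle, in the members and in each of 8 pathway lists. The TGF-beta target genes are the most one-sided list, with 1 gene above and 21 below 0, and no gene passed the adjusted test.

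TGF-beta target genes, which include matrix genes, contractile genes and cell cycle inhibitors, had a negative log2 fold change in 21 of 22 tested, with a median of −0.17. The only gene above 0 was Tgfbi (0.00054), named after its value was seen. Cdkn2b, the cell cycle inhibitor p15, had the smallest p of the list, at 501 ± 46.1 normalized counts in CPF and 612 ± 107 in vehicle (log2 fold change −0.28, SE 0.096, adjusted p = 0.611), with 6 of 6 CPF libraries below the vehicle mean. Acta2, smooth muscle actin, was at 902 ± 189 in CPF and 1144 ± 224 in vehicle (log2 fold change −0.35, SE 0.14, adjusted p = 0.651). Leaving out single libraries gave −0.32 to −0.19 for Cdkn2b and −0.44 to −0.27 for Acta2. At an unadjusted p under 0.05 stood 2 of 22, both lower with CPF, against 4.55% of all tested genes.

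The size of this difference in the target genes moved with the libraries that stood apart. The median was −0.099 without vehicle replicate 2, −0.26 without CPF replicate 1 and −0.18 without both, and 19 of 22 genes were negative in each of these fits. Without both, 12 of 22 target genes had an unadjusted p under 0.05 in the lower direction, against 6.96% of all tested genes, and 0 of 22 passed the adjusted test, in a fit that called 54 genes (0.399%). Taken in sets of replicates, the median came to −0.15 (1 to 3) and −0.22 (4 to 6). These genes lie in common matrix and contractile programmes and are not independent of each other.

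BMP target genes showed no common direction (10 tested, 4 positive and 6 negative, median −0.093). Id1, an inhibitor of differentiation induced by BMP signalling, was at 28.6 ± 6.28 normalized counts in CPF and 19.9 ± 6.27 in vehicle (log2 fold change 0.52, SE 0.22, adjusted p = 0.651, exact permutation p = 0.0476). In CPF, 3 of 6 libraries lay above the highest vehicle library for Id1, and its counts were low.

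Lists of cell markers also lay to 1 side, though not all to the same side. Preadipocyte and fibroblast markers (9 of 9 in the table) had negative log2 fold changes in 8 of 9 (median −0.11), with a summed level of 23109 to 26311 normalized counts in vehicle and 22442 to 23923 in CPF. Adipocyte markers were positive in 8 of 8 (median 0.13), at 70565 to 88896 in vehicle and 57317 to 98579 in CPF, the lowest being CPF replicate 1. At an unadjusted p under 0.05 in the higher direction stood 1 of 8 adipocyte markers, against 2.77% of all tested genes. Without both libraries that stood apart 7 of 8 did (median 0.24), against 998 of 13531 tested genes. Without CPF replicate 1 alone 7 of 8 did as well (median 0.29), against 1148 of 13531. In that last fit the median of the target genes was −0.26. Brown adipocyte markers were negative in 7 of 7 tested (median −0.18), and without both libraries that stood apart 4 of 7 were positive (median 0.053). At an unadjusted p under 0.05 in the lower direction stood 1 of 7, Ucp1 (log2 fold change −0.75, SE 0.25, adjusted p = 0.611), against 4.55% of all tested genes. Without both libraries Ucp1 was at −0.48 (SE 0.22, adjusted p = 0.369), and 0 of 7 markers stood under that unadjusted p, against 6.96% of all tested genes. Mural and smooth muscle markers were positive in 4 of 4 tested (median 0.12), the opposite side to Acta2 and most target genes, but in 2 of 4 without vehicle replicate 2. Without both libraries Des (desmin), named after its value was seen, passed the test (log2 fold change 0.33, SE 0.064, adjusted p = 0.0332). The part of these cell markers in the values of the members and their target genes was not tested.

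The members were mostly high or mostly low in 5 of 12 libraries and divided in the others. Relative to the median of the 12 libraries, 8 of 9 members were higher in vehicle replicate 2 and 7 of 9 in CPF replicate 1 and in vehicle replicate 5, whereas 8 of 9 were lower in vehicle replicate 1 and in CPF replicate 2. In the other 7 libraries 3 to 6 of 9 members were higher, and over all tested genes 49.2% to 50.7% were higher in each library. Tgfbr2 was the exception in vehicle replicate 2 (−0.35 on the log2 scale). The TGF-beta target genes were at a median of 0.57 in vehicle replicate 2 and 0.27 in CPF replicate 1, and adipocyte markers were at −0.23 and −0.60 in these libraries. Adipocyte markers and target genes lay on opposite sides of 0 in all libraries but vehicle replicate 4 (−0.048 and −0.037). The sizes varied, being −0.29 and 0.074 in vehicle replicate 3, −0.19 and 0.20 in vehicle replicate 6 and 0.15 and −0.20 in CPF replicate 2. Any link between these lists was not tested. Brown adipocyte markers differed between the libraries that stood apart, at 0.31 in vehicle replicate 2 and −0.83 in CPF replicate 1. Between replicates 4 to 6 and replicates 1 to 3, in which 88 genes differed, no member passed the test.

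**Figure D5:**
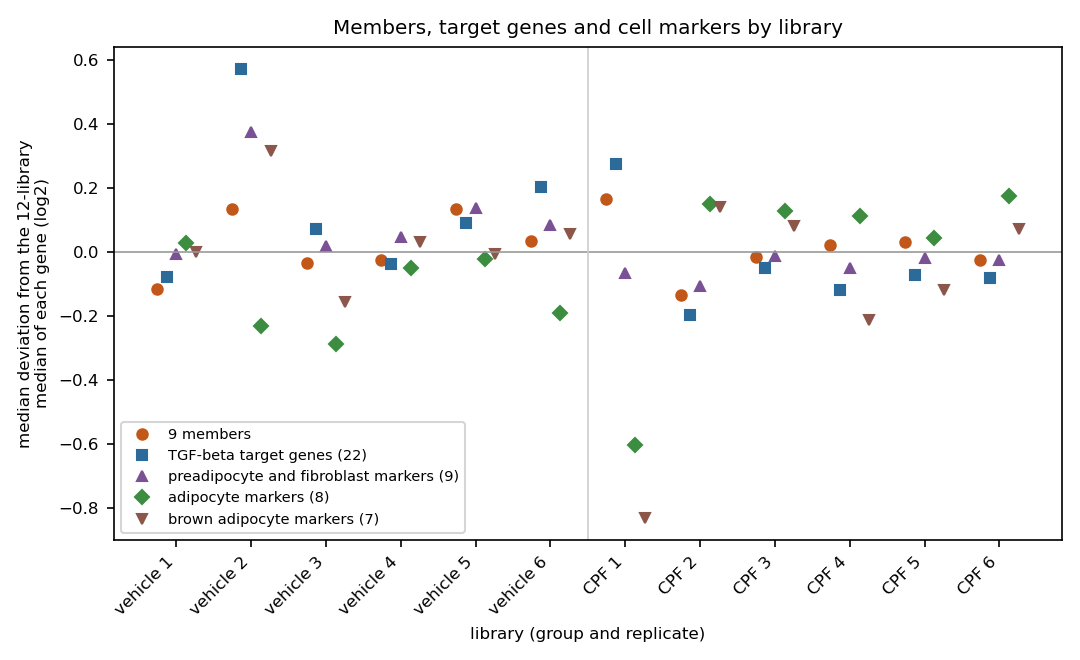
Median deviation from the 12-library median of each gene, on the log2 scale (vertical axis), for the members, TGF-beta target genes and markers of cell types in each library (horizontal axis). Target genes are highest in vehicle replicate 2 (0.57) and CPF replicate 1 (0.27), with adipocyte markers at −0.23 and −0.60. Adipocyte markers and target genes lie on opposite sides of 0 in all libraries but vehicle replicate 4 (−0.048 and −0.037).

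The genes whose pattern over the 12 libraries was most like that of a member were found by the root mean square difference of standardized log2 values, for the most abundant member of each role. Sema4b (0.278), Azin2 (0.291) and Rcan2 (0.339) were nearest to Tgfbr2, Ifnar2 (0.314), Mtfr1 (0.369) and Copb2 (0.376) to Tgfb1, and Zmym1 (0.416), Eif5a2 (0.436) and Rdh11 (0.476) to Smad3. Without both libraries that stood apart, 0 of 3 of these genes remained among the nearest for each member.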

How the data were processed

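RNA was sequenced from 12 libraries, 6 treated with 1 pM CPF and 6 with vehicle for 4 h. Reads were assessed with FastQC and trimmed with Trimmomatic by the authors, who used HISAT2 for alignment (GRCm38), HTSeq for strand-specific counting over exons and DESeq2 to normalize the counts. Of these programs the versions were not given in the sources used here. The deposited values are a signal in normalized counts, whole reads divided by 1 factor per library, from which 100% of values gave whole reads within 0.01 read. Also in the table were the group means, fold changes and an unnamed column of p-values of the authors' own comparison and 12 columns of a ratio per library, none of which were used.

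Groups were taken from the labels. Genes with a mean of at least 10 (13531 of 14775) were tested with limma 3.58.1 (R 4.3.3; trend and robust settings) on log2(value + 1), two-sided, without covariates, with Benjamini-Hochberg adjustment over all tested genes at 0.05. Exact permutation tests used all 924 arrangements. Alternatives were edgeR 4.0.16 and DESeq2 1.42.0 on the recovered reads, TMM rescaling, other filters and pseudocounts, library weights, the replicate block, fits within replicates 1 to 3 and 4 to 6, and libraries left out. The fits were tested on simulated data. Gene lengths came from GENCODE M21 (GRCm38) (a newer release than the Ensembl annotation of the authors) and promoter sequences from RefSeq (GRCm38.p6). Members share at most 0.586% of their 50-base stretches with other genes. Named genes were the members, the 2 genes with the smallest p in each pathway list, and the 3 genes nearest in pattern to the most abundant ligand, receptor and Smad per kilobase. The members and lists were chosen with earlier results of these data known.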

Additional observations from a re-analysis of the deposited data

Results flagged for a closer look

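Dixon's test of the gap to the next library was applied to normalized counts in 48 groups of 6 libraries (24 genes followed in both groups). In 12 of 48 groups the highest library lay far from the other 5. The test flags about 1 in 20 independent groups of normally distributed values, but these groups share libraries and are not independent. The share flagged over all tested genes was not determined, so that 12 of 48 is no trait of these genes. All 12 such values came from vehicle replicate 2 or CPF replicate 1, the libraries that stood apart over all genes, and all were high. Among the members these were Tgfb1 in CPF replicate 1 (819 normalized counts, the other CPF libraries being at 678 to 702), Tgfb2 in vehicle replicate 2 (93.7, the others at 48.7 to 65.2) and Smad7 in CPF replicate 1 (364, the others at 130.2 to 189).

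Among the other pathway genes, vehicle replicate 2 stood above the rest of its group for Bmp6 (38.5), Bambi (43.6), Smad1 (435), Dab2 (623) and Cdkn2b (816). CPF replicate 1 stood above the rest of its group for Ltbp1 (224), Bgn (16182), Grem1 (391) and Smad1 (453).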

How the results depend on the processing

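No member passed the adjusted test under any of the alternatives. The number of genes called higher and lower over all tested genes was 0 and 0 in the reported fit and with edgeR, 0 and 4 with DESeq2, 3 and 19 with library weights, 8 and 14 within replicates 4 to 6 (1 of the lower being Ltbp1, −0.70), and 25 and 29 without both libraries that stood apart. Leaving out 1 library gave 0 to 6 higher and 0 to 5 lower, the most without CPF replicate 1. The sign of small log2 fold changes turned for Tgfbr1 within replicates 1 to 3 (0.011) and over libraries left out (−0.082 to 0.0066), for Bmpr1a over libraries left out (−0.066 to 0.0047), for Bmpr2 with library weights (0.0031), within replicates 4 to 6 (0.024), without both libraries (0.0046) and over libraries left out (−0.057 to 0.031), for Smad3 within replicates 1 to 3 (0.0083) and for Bmp6 within replicates 4 to 6 (0.014), and the cause was not tested. With the longest transcript as the length, levels per kilobase were 269.5 for Tgfb1, 77.1 for Smad3, 88.5 for Bmpr2 and 62.5 for Tgfbr1. Without both libraries, 0 of the 3 nearest genes in pattern were shared for Tgfb1, Tgfbr2 and Smad3. A pairing of the samples by replicate number was not seen (correlations of −0.21 to 0.26, with only replicate 6 correlating best with its own number). With 6 libraries in each group these correlations cannot exclude a pairing. With the replicate block 0 genes were called, and the log2 fold change of Tgfbr2 was 0.25 (SE 0.070). The SE of the members' log2 fold changes was 0.062 (Tgfb1) to 0.23 (Smad7). The log2 fold change of Tgfbr2 (0.25, SE 0.069) was well above its SE and still failed the adjusted test. That of Tgfb3 (−0.34, SE 0.16) lay nearer to its SE and failed as well. A failed adjusted test therefore does not show that a gene was unchanged.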
